A study of Mus musculus with 6 samples.

Results

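A set of 9 genes that mark lymphoid priming and the first steps of the B lineage was followed in sorted mouse hematopoietic stem cells. They are Dntt, Il7r, Rag1, Rag2, Ikzf1, Ebf1, Pax5, Cd79a and Cd79b, found by gene name among the 55487 genes of the deposited expression table. All 9 were present once, and all 9 passed the filter on low counts that left 15298 genes for testing. The cells were LT-HSCs (long-term hematopoietic stem cells, from which all blood lineages are renewed), taken from bone marrow and sorted as lineage-negative, Sca-1+, c-Kit+, Flk2- and CD34-. They came from wild-type mice that had not been irradiated. The mice had received saline in 3 samples and carnosine in the other 3, a natural dipeptide built from histidine and beta-alanine. The labels do not give the strain, age and sex of the mice and the dose, route and duration of treatment. They also do not tie each sample to its own mouse, and p-values then measure only the spread between these samples, which may be technical.

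Lymphoid priming is the low-level transcription of lymphoid genes in multipotent cells before they commit. In the textbook sequence the zinc finger factor Ikaros (Ikzf1) opens the lymphoid program, the interleukin-7 receptor (Il7r) supports survival and growth, and EBF1 and then PAX5 fix the B cell fate. The RAG1 and RAG2 recombinase cuts antigen receptor genes, the terminal transferase encoded by Dntt adds untemplated nucleotides at the joints, and CD79A with CD79B carries the signal of the finished receptor.

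The sequences upstream of 4 of these genes are shown because Dntt, Rag1 and Rag2 were lower in carnosine samples while Cd79a, a later B lineage gene, was not; they and the motifs were chosen after these values were seen. RefSeq (build GRCm38.p6) held a promoter window for 8 of the 9 genes, Cd79b being the other. Capitals mark the E-box CANNTG, the motif read by E proteins such as TCF3 (E2A). The motif reads the same on both strands. Each run goes 5′ to 3′ on the gene's strand and stops before the first annotated exon base: Dntt is chr19:41029025-41029274 (plus strand), Rag1 chr2:101649533-101649782 (minus strand), Rag2 chr2:101624462-101624711 (plus strand) and Cd79a chr7:24897247-24897380 (plus strand).
Dntt: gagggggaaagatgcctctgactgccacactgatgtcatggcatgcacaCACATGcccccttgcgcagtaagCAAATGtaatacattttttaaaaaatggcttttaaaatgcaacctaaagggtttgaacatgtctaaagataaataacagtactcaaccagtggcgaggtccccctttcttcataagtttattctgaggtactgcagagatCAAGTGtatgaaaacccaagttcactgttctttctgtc
Rag1: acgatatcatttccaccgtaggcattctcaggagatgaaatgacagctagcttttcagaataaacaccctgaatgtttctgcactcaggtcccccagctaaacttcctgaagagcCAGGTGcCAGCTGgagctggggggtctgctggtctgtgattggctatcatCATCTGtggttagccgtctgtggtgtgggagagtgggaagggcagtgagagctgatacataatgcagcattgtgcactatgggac
Rag2: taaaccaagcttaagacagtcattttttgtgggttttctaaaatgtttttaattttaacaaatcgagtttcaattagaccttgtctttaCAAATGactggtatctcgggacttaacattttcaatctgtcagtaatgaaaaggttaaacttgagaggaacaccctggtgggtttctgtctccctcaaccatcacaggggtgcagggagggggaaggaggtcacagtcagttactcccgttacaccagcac
Cd79a: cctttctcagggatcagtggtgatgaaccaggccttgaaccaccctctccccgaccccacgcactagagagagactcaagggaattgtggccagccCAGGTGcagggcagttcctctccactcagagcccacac
The runs of Dntt and Rag1 held 3 E-boxes each, and those of Rag2 and Cd79a 1 each. Over the 250 bases before the start, 7 of the 8 genes had an E-box, and so did 66.2% of all 32851 windows in the RefSeq table. In all, 12 motifs were searched on both strands. The 8 genes had 10 windows, and a gene was counted if any of its windows matched. The percentages are of single windows, so the 2 are not the same measure. The E-box forms CAGGTG (Rag1 and Cd79a, 17.2% of all windows) and CAGCTG (Rag1, 13.0% of windows) stand side by side in the Rag1 run. The paired EBF site CCCNNGGG was found upstream of Ikzf1 only (11.8% of windows), and a longer form of it, with 1 fixed base more at each end, in 0 of the 8 genes (0.779% of windows). The Ikaros core GGGAA was found in 8 of 8 genes (56.2% of windows), its longer form TGGGAA in Ebf1 and Rag1 (21.6%), and the ETS core GGAA, which both contain, in 8 of 8 (93.4%). The GC box GGGCGG was found in Ikzf1 and Pax5 (32.7% of windows). CTCANTCT (4.55% of windows), the TATA box TATAAA (12.4%) and the CRE site TGACGTCA (1.55%) were found in 0 of the 8 genes. These are matches of letters only, and no motif was tested for an excess among the 8 genes.

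The libraries held 10304539 to 13251332 counts, and 3 counts, the limit that a count of 0 allows, correspond to 0.226 to 0.291 CPM (counts scaled by library size). No library stood apart within its group, and the first principal component, 49.1% of the variance, separated saline from carnosine. All 9 stem cell markers examined (Procr, Hlf, Mecom, Mllt3, Fgd5, Hoxb5, Slamf1, Kit and Ly6a) were above 1 CPM in every library, the lowest value being 1.24 CPM for Hoxb5. The lymphoid members were above 1 CPM in every library too (lowest 1.82 CPM, Rag2 in carnosine replicate 1), so this bar does not set cell types apart. RNA of genes that go against the label was read as well: Flt3, which encodes Flk2, at 764 to 830.5 CPM and Cd34 at 836 to 884 CPM, although the gate excludes cells with either protein on the surface, and the progenitor marker Cd48 at 66.0 to 73.4 CPM.

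Per gene length the members covered a wide range. Dntt led with 139 ± 2.80 FPKM (fragments scaled by library size and gene length; SD, n = 3) in saline and 114 ± 3.47 FPKM (SD, n = 3) in carnosine, and only 2.46% of tested genes had a higher mean. Ikzf1 followed at 17.2 FPKM in both groups, then Cd79b (8.94 in saline and 9.70 in carnosine), Cd79a (4.003 and 4.95 FPKM) and Il7r (2.01 and 1.64 FPKM). Rag1, Rag2 and Pax5 lay between 0.424 and 0.956 FPKM as group means, and Ebf1 was lowest at 0.491 ± 0.0698 FPKM in saline and 0.273 ± 0.0741 FPKM in carnosine (SD, n = 3). The first 5 places and the last were held by the same genes in all 6 libraries. Rag1, Rag2 and Pax5 changed places from library to library, so their order cannot be told from these values. Dntt took 64.9% of the members' counts in saline and 61.1% in carnosine.

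**Figure D1:**
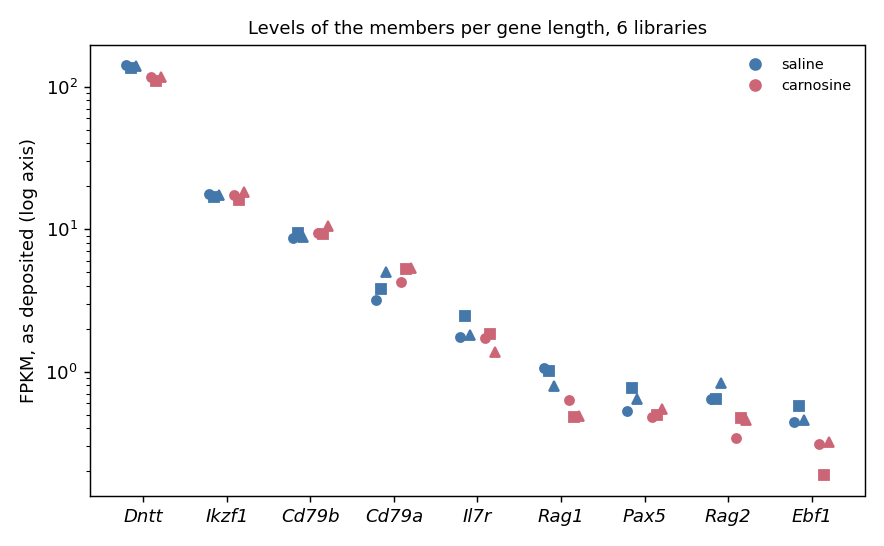
Deposited FPKM of the 9 genes on a log axis, each point 1 library, with saline in blue, carnosine in red, and circle, square and triangle for replicates 1, 2 and 3. Dntt lies above 110 FPKM in every library, and Rag1, Pax5, Rag2 and Ebf1 lie near or below 1 FPKM.

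The comparison asks which of these genes differ between LT-HSCs of carnosine-treated and saline-treated mice. The recombination genes Dntt, Rag1 and Rag2 and the B lineage factor Ebf1 fell in carnosine samples, whereas Il7r, Ikzf1, Pax5, Cd79a and Cd79b did not pass the test. The count was 4 of 9 lower and 0 higher (edgeR adjusted p under 0.05), beside 17.9% of all tested genes called in either direction, 8.39% lower and 9.51% higher. The same 4 genes had groups that did not overlap in CPM, beside 38.7% of all genes without overlap, 19.0% lower and 19.7% higher. The median log2 fold change was -0.29 over the 9 genes and 0.00 over all tested genes. In bulk samples, fewer cells carrying an RNA and less RNA per cell cannot be told apart. Only Dntt kept its call under all 17 alternatives: with any 1 library left out, between 1 and 2 of the 9 genes were called.

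**Figure D2:**
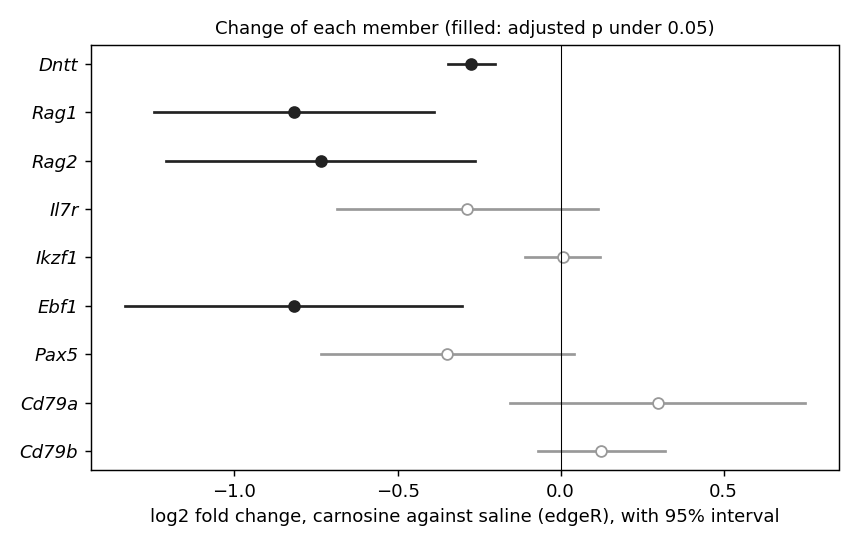
Log2 fold change of each gene, carnosine against saline, with the 95% interval of the edgeR fit as a line. Filled points passed the adjusted threshold of 0.05; Dntt has the narrowest interval, and the intervals of Rag1, Rag2 and Ebf1 lie below 0 but are wide.

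Dntt (ENSMUSG00000025014, GRCm38 chromosome 19, 41029275 to 41059525) encodes terminal deoxynucleotidyl transferase. Its levels were 460.1, 443 and 452 CPM in saline replicates 1, 2 and 3, and 380.5, 361 and 380.0 CPM in carnosine. Every carnosine library lay below every saline library, and the spread within a group was small (1.94% of the mean in saline, 3.04% in carnosine). The mean went from 452 ± 8.77 to 374 ± 11.3 CPM (SD, n = 3 each) and the log2 fold change was -0.27 (SE 0.03, edgeR adjusted p = 0.00118), so that it fell by 17.3% (95% interval: fell by 13.1% to fell by 21.2%). Of the 4 genes that fell, it is the most abundant and changed by the smallest proportion.

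Rag1 and Rag2 are neighbours on chromosome 2, transcribed towards each other with 5752 bases between their ends, and their products act as 1 recombinase. Rag1 (ENSMUSG00000061311, 101638282 to 101649501) had 73, 69 and 69 counts in the saline libraries, or 7.02, 6.70 and 5.23 CPM. The carnosine libraries held 51, 33 and 43 counts, or 4.23, 3.17 and 3.26 CPM. All carnosine values were under the lowest saline value, and the log2 fold change was -0.82 (SE 0.18, edgeR adjusted p = 0.0219), so that it fell by 43.3% (interval: fell by 23.7% to fell by 57.9%). The call was lost without saline replicate 1 or 2 or carnosine replicate 2 or 3 (edgeR adjusted p = 0.0684 to 0.0717).

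Rag2 (ENSMUSG00000032864, chromosome 2, 101624718 to 101632529) was the sparsest member, with 35, 35 and 58 counts in saline and 22, 26 and 32 in carnosine. In CPM these were 3.37, 3.40 and 4.40 against 1.82, 2.50 and 2.43. The groups again did not overlap, and on the log2 scale Rag2 fell by 0.74 (SE 0.20, edgeR adjusted p = 0.0449). This call sits close to the threshold and was lost when any 1 of the 6 libraries was left out (edgeR adjusted p = 0.0742 to 0.137), and with DESeq2 (adjusted p = 0.175). A further gene, B230118H07Rik, shares 80 exon bases with Rag1 on the same strand and 208 with Rag2 on the opposite strand. It had 146, 165 and 196 counts in saline and 250, 170 and 174 in carnosine, with overlapping groups (edgeR adjusted p = 0.535). Strand cannot tell apart reads in the bases shared with Rag1. Reads in the bases shared with Rag2 cannot be told apart where strand was not used.

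Il7r encodes the interleukin-7 receptor alpha chain, whose signal early lymphocytes need to survive and divide. Its levels were 9.24, 12.8 and 9.55 CPM in saline and 9.04, 9.71 and 7.20 CPM in carnosine. Only saline replicate 2 stood above 10 CPM, and the groups overlapped. The log2 fold change was -0.29 (SE 0.17, edgeR adjusted p = 0.291), with a 95% interval from -0.69 to 0.11 that holds changes as large as the one in Dntt. Ikzf1, the gene of the early lymphoid regulator Ikaros, had 190.2, 182 and 187 CPM in saline and 190.2, 174 and 198 CPM in carnosine. Its log2 fold change was 0.01 (SE 0.05, edgeR adjusted p = 0.945), with an interval of -0.11 to 0.12, and its sign turned with upper quartile scaling and with limma-trend on FPKM. With 1809 to 2610 counts per library its depth was high, and a change as large as the point estimate for Dntt lies outside its interval.

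Ebf1 (ENSMUSG00000057098, chromosome 11, 44617317 to 45008091) encodes the factor that commits progenitors to the B lineage. It had 54, 69 and 71 counts in saline and 44, 23 and 50 in carnosine, or 5.20, 6.70 and 5.38 CPM against 3.65, 2.21 and 3.79 CPM. Each carnosine library was lower than each saline library, and carnosine replicate 2 was the lowest. The log2 fold change was -0.82 (SE 0.22, edgeR adjusted p = 0.0420). As with Rag2, leaving out any 1 library ended the call (edgeR adjusted p = 0.0599 to 0.119), and so did DESeq2 (adjusted p = 0.0572). Rag2 and Ebf1 each kept the call under 7 of the 17 alternatives.

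Pax5 encodes the factor that holds cells in the B lineage and is a target of EBF1. It was read at 5.20, 7.58 and 6.37 CPM in saline and 4.73, 4.91 and 5.38 CPM in carnosine. The lowest saline value fell within the carnosine range, so the groups overlapped. The log2 fold change of -0.35 (SE 0.17) did not pass (edgeR adjusted p = 0.193), and the 95% interval ran from -0.73 to 0.04. Its exons share 636 bases with the opposite-strand gene 5730488B01Rik, which had 0 to 3 counts per library.

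**Figure D3:**
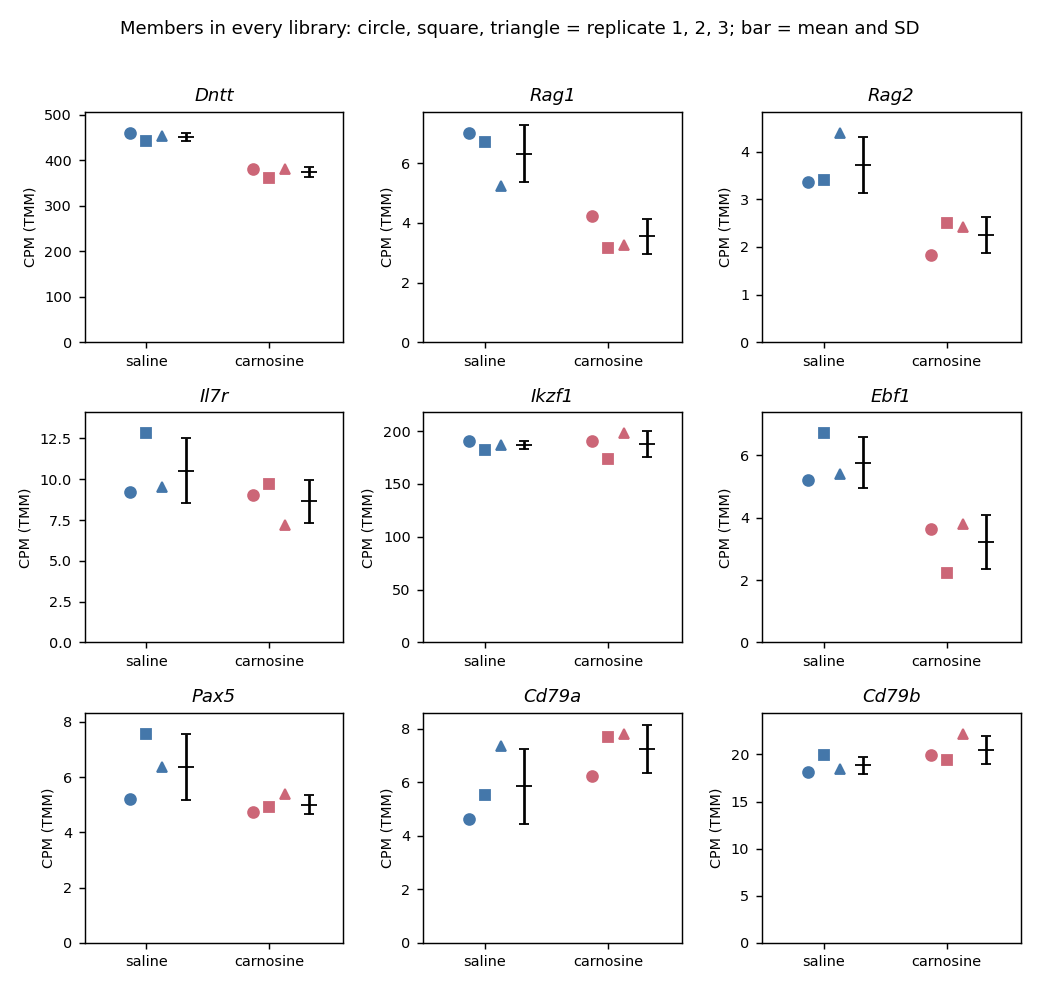
CPM of each gene in each library, on axes that start at 0, with replicates 1, 2 and 3 as circle, square and triangle and the group mean and SD (n = 3) in black. The saline and carnosine points of Dntt, Rag1, Rag2 and Ebf1 do not overlap, whereas those of Il7r, Ikzf1, Pax5, Cd79a and Cd79b do.

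Cd79a and Cd79b encode the 2 chains that pair to signal for the B cell receptor and its precursor. Cd79a (ENSMUSG00000003379, chromosome 7, 24897381 to 24902197) was read at 4.62, 5.54 and 7.35 CPM in saline and 6.22, 7.69 and 7.81 CPM in carnosine. Cd79b (ENSMUSG00000040592, chromosome 11, 106311341 to 106314762) was read at 18.2, 19.9 and 18.4 CPM in saline and 19.9, 19.4 and 22.2 CPM in carnosine. Both had higher means in carnosine, with overlapping groups. Neither passed the test: the log2 fold change was 0.30 (SE 0.19, edgeR adjusted p = 0.329) for Cd79a, with an interval of -0.15 to 0.75. For Cd79b it was 0.13 (SE 0.08, edgeR adjusted p = 0.340), with an interval of -0.07 to 0.32. Per length, Cd79b exceeded its partner 2.08-fold over the 6 libraries.

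Ratios within a library, which need no scaling between libraries, compared pairs of the members. The ratio of Dntt to Cd79a counts was 98.6, 79.3 and 61.2 in saline and 60.8, 46.6 and 48.4 in carnosine. All carnosine ratios were below all saline ratios, the nearest pair differing little, with a mean log2 difference of -0.60 (exact permutation test, two-sided, p = 0.1, the smallest that 3 against 3 can give). Both genes enter this difference: the log2 fold change was -0.27 for Dntt and 0.30 for Cd79a, which did not pass (edgeR adjusted p = 0.329). The higher Cd79a mean in carnosine also enters the Ebf1 ratio that follows. The ratio of Ebf1 to Cd79a, added after the values were seen, was 1.12, 1.21 and 0.733 in saline and 0.589, 0.292 and 0.488 in carnosine (log2 difference -1.19, exact permutation p = 0.1). The ratio of Rag1 to Dntt, also added afterwards, was 0.0154, 0.0152 and 0.0116 in saline and 0.0112, 0.00893 and 0.00868 in carnosine (log2 difference -0.55, exact permutation p = 0.1). The ratio of Cd79a to Cd79b overlapped between groups, at 0.312 ± 0.0774 in saline and 0.355 ± 0.0418 in carnosine (SD, n = 3; exact permutation p = 0.5). Adjusted over the 4 ratios, the 3 ratios without overlap had an exact permutation p of 0.133, and none could pass at this group size.

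A list of 23 regulators of lymphoid priming held transcription factors that act beside Ikzf1, Ebf1 and Pax5, Id inhibitors and the receptor Notch1. Of these 23 genes, 9 fell, Notch1 among them, and 0 rose, with a median log2 fold change of -0.13. This count and those of the lists below stand beside 8.39% of all tested genes called lower and 9.51% called higher. Some genes, such as Ccr9 and Irf4, are in more than 1 list and enter each count, so the counts are not separate. Myb, which progenitors need for B cell development, fell from 629 ± 4.23 to 488 ± 2.48 CPM (SD, n = 3; log2 fold change -0.37, edgeR adjusted p = 3.56e-05). Id3, an inhibitor of E proteins, fell from 23.7 to 15.5 CPM (edgeR adjusted p = 0.00146), and Lyl1 (-0.41) and Zeb2 (-0.60) fell as well. The list thus held falls both of a factor that promotes the B lineage and of an inhibitor of E proteins. Of 13 tested surface and other RNAs of lymphoid-primed progenitors, 3 rose and 2 fell, with a median of 0.00. The costimulatory receptor Cd27 fell (-0.34, edgeR adjusted p = 0.000641), while the progenitor surface genes Cd93 (0.14) and Cd24a (0.14) rose with edgeR but not with DESeq2. The chemokine receptor Ccr9 (-0.62) and the lymphoid surface marker Ly6d (0.59) were called in opposite directions, but both calls were lost without saline replicate 2 or 3 or carnosine replicate 2 or 3, and that of Ccr9 also without saline replicate 1 (edgeR adjusted p = 0.0591 to 0.0825), and neither passed with DESeq2 (adjusted p = 0.0642 and 0.0836). Flt3, the receptor of lymphoid-primed progenitors, had 822, 801 and 830.5 CPM in saline and 774, 786 and 764 CPM in carnosine, just outside the threshold (edgeR adjusted p = 0.0503), and passed it under 5 alternatives.

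Signalling below the Il7r protein gave 3 rises and 5 falls among 17 genes, with a median of -0.08. The kinase Jak3, which binds the common gamma chain, fell from 406 ± 1.45 to 345 ± 9.79 CPM (SD, n = 3; edgeR adjusted p = 0.00152). The survival protein Mcl1 (-0.23) and the feedback inhibitor Socs3 (-0.28) fell too, and the STAT5-induced inhibitor Cish (0.46) and the kinase subunit Pik3r1 (0.21) rose. Of 15 genes that join or assist the breaks made by the recombinase, 2 rose and 1 fell, with a median of -0.04. Over all tested genes 17.9% were called in either direction, so this count says little about the list as a whole. The one that fell was Dclre1c, which encodes Artemis, the nuclease that opens hairpins left by the RAG proteins. It was read at 17.7, 20.4 and 23.6 CPM in saline and 13.7, 9.91 and 12.6 CPM in carnosine (log2 fold change -0.77, SE 0.15, edgeR adjusted p = 0.0128). The DNA-bending cofactor Hmgb2 (0.17) and the end-binding Ku subunit Xrcc5 (0.27) rose, the latter not with DESeq2.

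Of 20 pro-B and pre-B genes 16 were tested, of which 5 fell and 2 rose, with a median of -0.35. The adaptor Blnk, named after its values were seen because it links CD79 to downstream enzymes, fell from 9.15 to 5.65 CPM (edgeR adjusted p = 0.0218). It lost the call without saline replicate 2 or 3 or carnosine replicate 1 or 3 (edgeR adjusted p = 0.0574 to 0.0687). The octamer factor Pou2f2 (-0.32) and the Wnt effector Lef1 (-1.30) fell, the latter call being lost without carnosine replicate 1 or 3 (edgeR adjusted p = 0.0579 and 0.0643). The surrogate light chain genes did not pass. Vpreb1 had a mean of 2.77 CPM in saline and 2.16 in carnosine (edgeR adjusted p = 0.242), and Igll1 3.98 and 4.26 CPM (edgeR adjusted p = 0.706). The 2 that rose were Irf4 (0.65, edgeR adjusted p = 0.00464) and the coactivator Pou2af1 (1.03, edgeR adjusted p = 0.0179), both of which plasma cells also express. Pou2af1 lost the call without saline replicate 1 or 3 or carnosine replicate 1 or 3 (edgeR adjusted p = 0.0547 to 0.0619). Among 13 signalling genes below the CD79 dimer 1 rose and 2 fell, with a median of 0.00, and the exchange factor Vav1 fell by 0.17 on the log2 scale, a call lost with DESeq2 (adjusted p = 0.0708).

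Markers of other lymphoid cells moved in different directions; the stated gate (lineage-negative, Sca-1+, c-Kit+) is meant to remove such cells. Of 14 tested plasma cell markers 8 rose and 1 fell, with a median log2 fold change of 0.63, and the summed level of the 15 listed was 925 to 1021 CPM in saline and 2926 to 3203 CPM in carnosine. The antibody constant gene Igha had 593, 588 and 593 CPM in saline and 2256, 2201 and 2292 CPM in carnosine (log2 fold change 1.93, edgeR adjusted p = 1.38e-08). It made up most of the summed level in every library. The chain-joining gene Jchain rose (1.74, edgeR adjusted p = 0.00649), and the surface proteoglycan Sdc1 fell (-0.44, edgeR adjusted p = 0.0115). Tnfrsf17, the receptor BCMA, stayed at 2 to 8 counts per library. Of 7 tested mature B cell markers 1 rose and 3 fell, with a median of -0.30: the light chain gene Igkc rose from 276 to 901 CPM, while the heavy chain gene Ighm fell from 324 ± 0.453 to 266 ± 4.95 CPM (SD, n = 3; edgeR adjusted p = 0.000436). The mature B cell markers Ms4a1, Cr2 and Fcer2a were under 1 CPM in every library. Reads of similar antibody constant genes may be split between them. Cd79a and Cd79b are B lineage genes, and the part of these markers in their values, or in those of the members that fell, was not tested.

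T lineage markers gave 1 rise and 1 fall of 11 tested, with a median of -0.03 and a summed level of 97.0 to 104 CPM in saline and 91.6 to 99.2 CPM in carnosine. Natural killer and innate lymphoid markers gave 2 rises and 1 fall of 7, with a median of -0.04. Plasmacytoid dendritic cells can also carry Dntt and Rag RNA. Their markers gave 0 rises and 1 fall (Ccr9) of 10 tested, with a median of -0.23. Their summed level was 613 to 687 CPM in saline and 617 to 654 CPM in carnosine, most of it from Runx2, Tcf4 and Bst2. The 4 defining markers (Siglech, Cox6a2, Klk1 and Ccr9) summed to 14.6 to 16.0 CPM in saline and 10.9 to 12.6 CPM in carnosine, without overlap. Most of that fall was in Ccr9, with a mean of 8.53 CPM in saline and 5.56 CPM in carnosine. The mean of Siglech was higher in carnosine (3.84 CPM in saline and 4.12 CPM in carnosine). Siglech had 44, 43 and 41 counts in saline and 25, 47 and 76 in carnosine, and Klk1 had 0 to 3. Markers of erythroid, myeloid and megakaryocytic cells gave 3 rises, all of globin genes, and 5 falls of 13 tested, with a median of -0.02 and a summed level of 862 to 885 CPM in saline and 680 to 700 CPM in carnosine. Among 16 genes of the gate and of stem cells 1 rose (Mecom, a stem cell factor, 0.19 on the log2 scale, edgeR adjusted p = 0.0241) and 0 fell. The call of Mecom held under 7 of 17 alternatives and was lost without any 1 of the 6 libraries (edgeR adjusted p = 0.0544 to 0.0693) and with DESeq2 (adjusted p = 0.159). The part of any of these in the results was not tested.

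**Figure D4:**
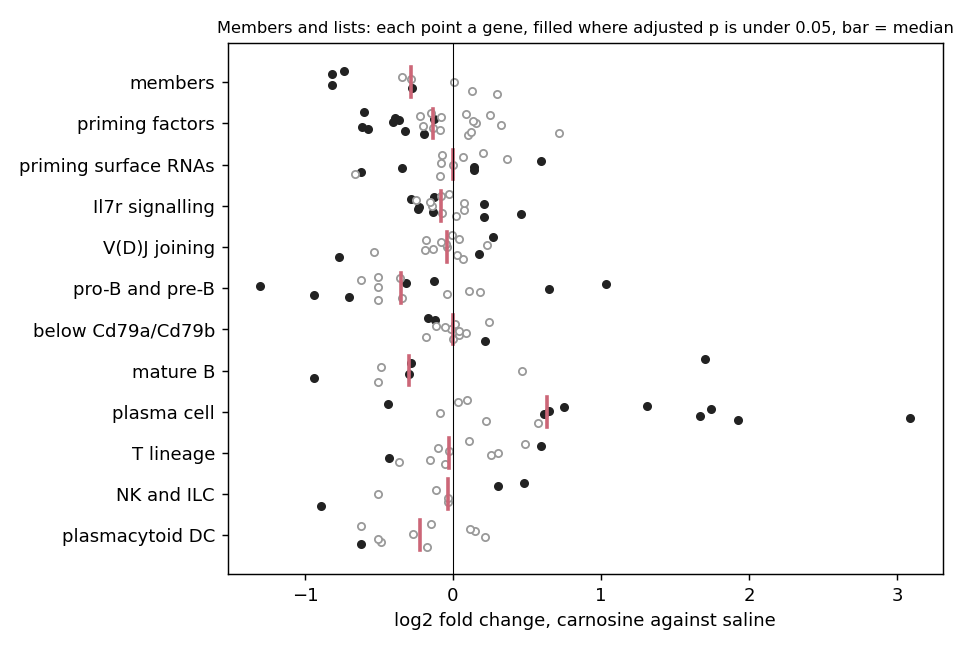
Log2 fold change (carnosine against saline) of every tested gene of the 9 members and 11 lists, filled where the edgeR adjusted p was under 0.05, with each list's median as a red bar. Plasma cell markers lie mostly above 0 (median 0.63), and pro-B and pre-B genes mostly below (median -0.35).

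The genes whose CPM over the 6 libraries was most like that of a member were sought among 11420 named genes, as a description only. For Dntt these were Zfp712, a zinc finger gene, and Slc38a2, an amino acid transporter (Pearson r = 0.998 for each). For Rag1 they were Nr1h2, the liver X receptor beta, and Trafd1 (r = 0.997 and 0.996), and for Ebf1 Eloa and Angel1 (r = 0.996 and 0.995). For Cd79a they were Smg9 and Tmem185a (r = 0.986 for each). The 6 points are the same libraries that form the 2 groups, so they are not independent of the comparison above.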

How the data were processed

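Poly-A RNA of 6 LT-HSC samples was sequenced as stranded paired-end libraries, per the labels' protocols. Tools listed in the submitters' processing notes are HISAT2, StringTie, edgeR and CASAVA 1.8, with GRCm38 as the build. Not given in the sources used here: annotation release, counting strand and the handling of multiply mapped reads. The authors deposited raw counts and FPKM per gene, per the file headers. Gene coordinates in the file equal those of GENCODE M21 for all 9 members.

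Counts were used as deposited. After filterByExpr, TMM factors (trimmed mean of M-values) set the scale, and edgeR 4.0.16 (R 4.3.3) gave two-sided quasi-likelihood F tests, with Benjamini-Hochberg adjustment over 15298 genes and a threshold of 0.05. Standard errors and 95% intervals come from the F statistic. CPM are on the TMM scale, and levels between genes were compared by the deposited FPKM. Exact permutation tests over samples were used for ratios, with 0.5 added to each count. Within-group library pairs differed by 5.08 to 6.26 times the sampling noise (chi-square per degree of freedom). None was therefore counted as a repeat sequencing of the same library. This does not show whether the libraries came from separate mice.

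The members and lists were chosen with earlier results of these data known. Genes named were all members, up to 4 called genes with the smallest p per list and direction, up to 4 list members of highest CPM, and the 2 genes most correlated with a member. Blnk, Vpreb1 and Igll1 and defining markers of other cell types were named outside this rule, and the motifs, the promoters shown and 2 of 4 ratios were chosen after the values were seen. The values of 1 gene that the rule names are not reported here. Alternatives were DESeq2 1.42.0, limma 3.58.1 (voom, and trend on FPKM with pseudocounts 1 and 0.1), other scalings and filters, a replicate block, leaving out immunoglobulin segments, and leaving out each library. Counting intervals and limits cover counting error only, since reads carry no molecular identifiers.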

Additional observations from a re-analysis of the deposited data

How the results depend on the processing

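All alternatives kept the direction of each member except Ikzf1, whose log2 fold change was -0.0088 with upper quartile scaling, -0.0013 and -0.0015 with limma-trend on FPKM (pseudocounts 1 and 0.1), and -0.0339 to 0.0584 with each library left out in turn, being below 0 when saline replicate 2 (-0.0083), carnosine replicate 1 (-0.0054) or carnosine replicate 3 was the one left out. Igll1 ranged from -0.0135 (without saline replicate 3) to 0.198. The cause was not tested. With FPKM and pseudocount 1, which understates low genes, Rag1 had -0.35, Rag2 -0.26 and Ebf1 -0.23. With DESeq2, 773 genes were higher and 775 lower, 2 members were lower, and 14 genes of the lymphoid lists were higher (22 with edgeR). With limma-trend on FPKM and pseudocount 0.1, 2 members were lower. Samples of equal replicate number showed no shared deviation from their group means: the deviations correlated at -0.05, -0.06 and 0.02. With 3 libraries per group, this does not show whether such samples were handled together. With the replicate block 946 genes were higher and 810 lower, and 2 members were lower, Rag2 (edgeR adjusted p = 0.0707) and Ebf1 (0.1004) losing the call. Without a filter on low counts Rag2 had an edgeR adjusted p of 0.0736. With 1 library left out and fewer samples to estimate the spread, 932 to 1009 genes were higher and 801 to 883 lower, 1 to 2 members were lower and 0 higher, and 15 to 19 list genes were higher and 19 to 26 lower. The Cd79a to Cd79b difference was then 0.08 to 0.40 and that of Dntt to Cd79a -0.78 to -0.43. No member was called higher under any of the 17 alternatives. Of the 49 called list genes that the naming rule selects, which are not all the called list genes, 30 kept the call under every alternative that tested them, 19 lost it under at least 1, and 0 changed direction. All members passed the filter, so the planned sum over members below it was not run. Counts of 22 to 103 per library for Rag1, Rag2, Ebf1, Pax5 and Cd79a limit what can be detected there.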
